A study of Rattus norvegicus with 4 samples.

Results

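Control-transfected oligodendrocyte precursor cells of the rat were described here from the arrays of the miR-neg group, which are 2 of the 4 arrays of the study. These cells had received a negative control RNA, and the miR-neg label of each array's title chose them. The other 2 arrays carried RNA from cells given a mimic of miR-125a-3p and are not used here, so every value below is a level in the control group and none is a response to the mimic.

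Oligodendrocyte precursor cells, or OPCs, are the dividing glial cells that give rise to the myelin-forming oligodendrocytes of the brain and spinal cord. They are recognised by the PDGF receptor alpha and the NG2 proteoglycan on their surface, and by the transcription factors Olig2 and Sox10 in the nucleus. As they leave the cell cycle they pass through a committed stage and then switch on myelin proteins and lipids. PDGF and basic FGF keep cultured precursors dividing, and their withdrawal or thyroid hormone promotes differentiation.

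The cells came from the cortices of rats at postnatal day 2 and were grown for 3 days with basic FGF and PDGF before transfection at 50 nM with Lipofectamine RNAiMAX. RNA was taken 48 h after transfection. The labels name the cell type as oligodendrocytes and the maturation as 2 days in vitro, and do not give the strain, the sex of the pups, the purification or the medium used after transfection. The design text calls both samples independent and names no separate animals or cultures, so the spread given here, always over n = 2, may be technical.

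Each array was a single-colour Agilent rat array hybridised with Cy3-labelled RNA made from 100 ng of total RNA. A level is the log2 of the processed signal minus the 75th percentile of all non-control probes of the same array, so 0 is the signal of a probe at that percentile and a step of 1 is a factor of 2 in signal. That percentile was a signal of 745.4 on replicate 1 and 678.9 on replicate 2. Well above background means that the scanner software flagged the probe's signal as such. Among 45579 probes measured on both arrays, 26311 were well above background on replicate 1 and 26798 on replicate 2, and 25442 (55.8%) were on both. No spot was saturated, and 6 and 2 of the 308 negative control spots carried the flag. A gene is represented by its brightest probe among those well above background on both arrays. Probe brightness depends on the probe's own sequence as well as on RNA amount, so ranks below are ranks of signal and not of transcript number. A gene not well above background may still be transcribed below the reach of its probe.

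Of 16575 genes with a symbol, 11109 (67.0%) were well above background on both arrays, 4791 were on neither and 675 lay in between. The share was 68.3% for the 16090 protein-coding genes and 24.8% for the 464 long non-coding RNA genes. Levels of the 11109 genes ran from -5.23 to 9.57 with a median of 0.54, and 10% of them lay above 4.49. The 40 brightest genes held 15.59% of the summed signal of these genes, and the 1000 brightest held 71.92%. Percentiles given for a gene below are its place among these 11109 genes, with 100 the brightest. List counts below are to be set beside the 67.0% share over all genes with a symbol.

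The 4 marker genes by which precursor cells are recognised were bright on both arrays. Pdgfra, the PDGF receptor alpha, had levels of 5.54 and 5.55 on replicates 1 and 2 (SD 0.005, n = 2) and stood at the 95.5th percentile. Cspg4, which encodes the NG2 proteoglycan, had levels of 4.69 and 4.81 (SD 0.086) and stood at the 91.9th percentile. Olig2, a basic helix-loop-helix factor that specifies the lineage, had levels of 6.27 and 6.42 (SD 0.104) at the 97.6th percentile. Sox10, an HMG-box factor needed throughout the lineage, had levels of 6.45 and 6.48 (SD 0.02) at the 97.8th percentile. All 4 genes were thus in the top 10% of signal, and the samples differed by at most 0.15, for Olig2.

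**Figure D1:**
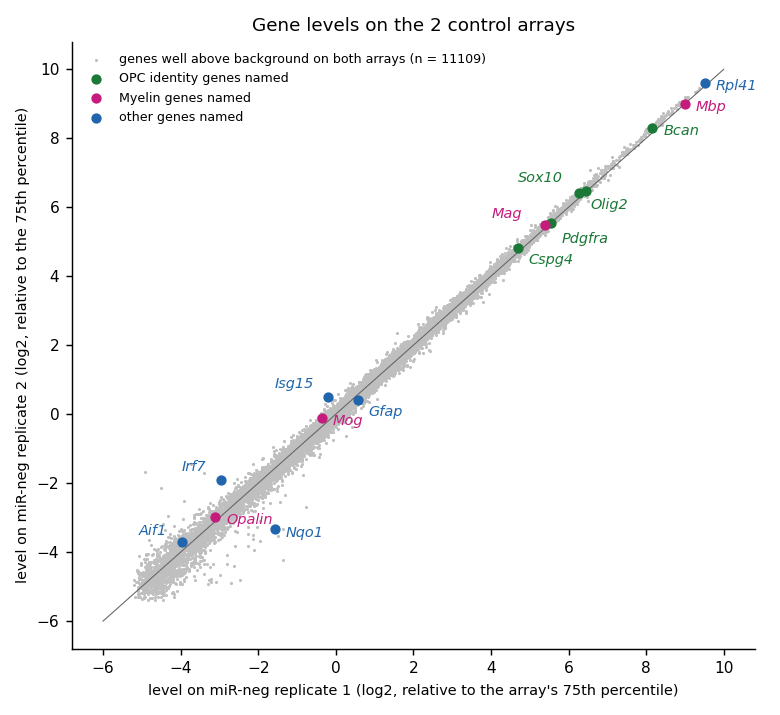
Level on miR-neg replicate 1 (x axis) against replicate 2 (y axis), both log2 relative to the array's 75th percentile, for the 11109 genes well above background on both arrays; the line marks equal levels and coloured points are genes named in the text. The points lie close to the line, more tightly at high than at low levels, and Mbp and Bcan lie near the upper end while Irf7 and Nqo1 lie off the line.

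The 120 bases before the annotated start of 3 of these marker genes are printed to show which of the promoter elements searched each one holds. They are RefSeq sequences in the GRCr8 build, with capitals for GGGCGG (a GC box) and CCAAT on either strand and for TATAAA on the coding strand; CCAAT reads ATTGG and GGGCGG reads CCGCCC on the opposite strand, and the ends of ATTGG and GGGCGG can overlap. The windows lie at chr14:33408517-33408636 (minus strand), chr8:66160822-66160941 (plus strand) and chr11:43961465-43961584 (plus strand).
Pdgfra: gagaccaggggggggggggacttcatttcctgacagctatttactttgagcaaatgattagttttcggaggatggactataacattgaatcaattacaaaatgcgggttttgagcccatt
Cspg4: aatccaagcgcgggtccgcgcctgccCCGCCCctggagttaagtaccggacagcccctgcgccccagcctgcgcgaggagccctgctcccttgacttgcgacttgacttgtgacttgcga
Olig2: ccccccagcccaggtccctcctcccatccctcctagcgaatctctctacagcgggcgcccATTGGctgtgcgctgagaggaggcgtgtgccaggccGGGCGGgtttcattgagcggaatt
Cspg4 holds a GC box and Olig2 holds a GC box and a CCAAT box, while the Pdgfra window holds none of the 3 motifs. A match is a description of the letters only.

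The wider list of OPC identity genes was measured for 33 members, and all 33 were well above background on both arrays. Their median level was 3.34 and their median percentile 81.0, and 17 of 33 lay in the top 25% of genes. Bcan, the lectican brevican of the perineuronal and perinodal matrix, was the brightest at 8.16 and 8.30 on 1 probe, while its other probe read 0.70 and 0.76. Tnr, which encodes tenascin-R, had levels of 7.14 and 7.34. Olig1, the close relative of Olig2 that promotes myelin gene expression, had levels of 6.56 and 6.70. Sulf2, an extracellular heparan sulfate sulfatase, had levels of 6.31 and 6.35. The lowest member was Kcnj10, the Kir4.1 channel of glial cells, at -1.91 and -1.95, and none of the 33 lay in the lowest 25%.

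Transcription factors of the lineage were mostly bright. Of 35 measured, 32 were well above background on both arrays with a median percentile of 74.2. Sox2, a stem and precursor cell factor, was the brightest at 7.48 and 7.67. Myrf, the membrane-bound factor that activates myelin genes in differentiating oligodendrocytes, followed at 6.93 and 6.95, the 98.5th percentile. Smarca4, the ATPase of BAF chromatin remodelling complexes, had levels of 6.07 and 6.09. Nkx6-1, a homeodomain factor of ventral progenitors, Id3, an inhibitor of basic helix-loop-helix factors, and Chd7, a chromatin remodeller, were not well above background on either array.

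Genes of committed precursors were measured for 20 members, all well above background on both arrays, with a median percentile of 72.7. Tns3, a focal adhesion protein of the tensin family, had levels of 7.25 and 7.24. Bcas1, a protein of newly forming and early myelinating oligodendrocytes, had levels of 6.54 and 6.58. Bmp4, a secreted ligand of the BMP family, had levels of 5.46 and 5.30, and Rnd2, a small GTPase, had 5.42 and 5.32. Enpp6, a choline phosphodiesterase of newly formed oligodendrocytes, was lower, at -1.58 and -1.52. Every measured member of the committed list and of the precursor list was thus above background in the same cultures. Both lists were chosen with earlier results of these data known, so these full shares are no test of cell identity or stage. Fewer cells of a type and less RNA per cell cannot be told apart in such bulk samples.

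Myelin genes were also present, with a wide spread within the list. Of 41 measured, 38 were well above background on both arrays, with a median percentile of 76.9 and 11 of 38 in the top 10%. Mbp, the myelin basic protein, had a level of 8.99 on replicate 1 and was 0.01 higher on replicate 2, and it ranked 12 among all genes by signal. That value came from 1 probe, and the other Mbp probe, designed on another transcript accession, read -2.80 and -2.76, so the rank holds for 1 probe and not for the gene as a whole. Tspan2, a tetraspanin of oligodendrocytes, had levels of 6.21 and 6.09, and Tppp, a tubulin polymerisation-promoting protein, had 5.79 on both arrays. Ugt8, which makes the myelin lipid galactosylceramide, had levels of 5.68 and 5.79.

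Several genes of compact or late myelin were lower, and these were named after their values were seen. Mag, the myelin-associated glycoprotein, was still bright at 5.40 and 5.48, and Cnp, a cyclic nucleotide phosphodiesterase of non-compact myelin, had levels of 5.23 and 5.31. Mog, a glycoprotein on the outer surface of mature myelin, had levels of -0.36 and -0.10, the 40.8th percentile. Mobp, another late myelin protein, had levels of -0.52 and -0.80, and Opalin, a transmembrane protein of mature oligodendrocytes, had levels of -3.10 and -2.98. Mal, a proteolipid of myelin vesicles, Ermn, a late cytoskeletal protein, and Klk6, a secreted protease, were not well above background on either array. Members of this list thus ran from levels above 5 to below the background limit.

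**Figure D2:**
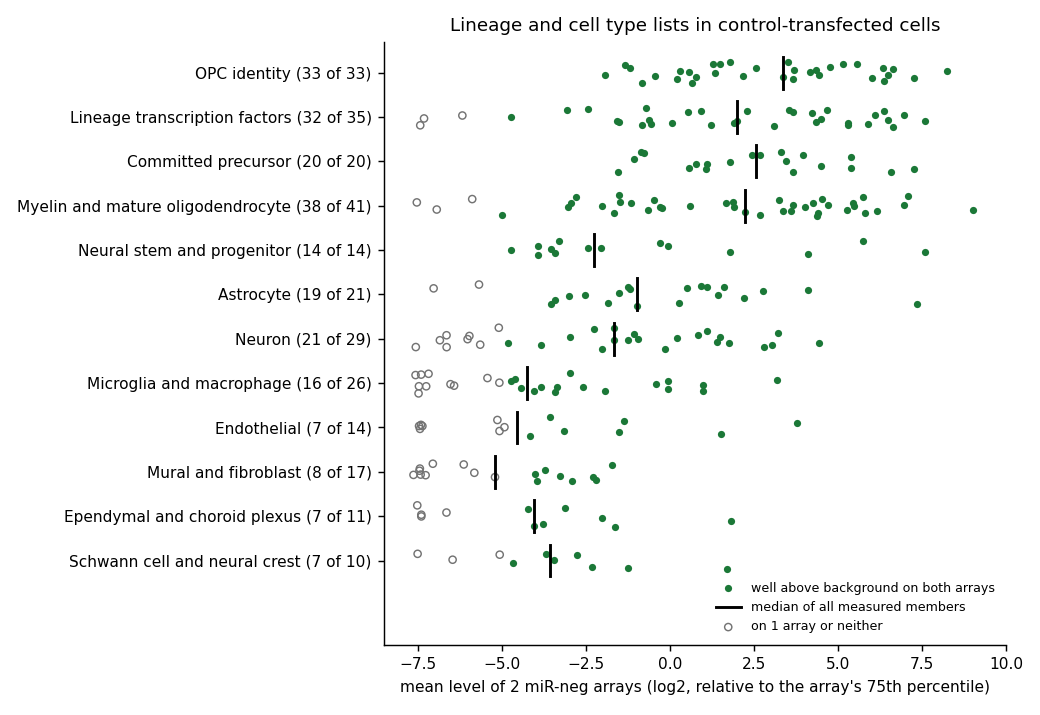
Mean level over the 2 miR-neg arrays (x axis, log2 relative to the array's 75th percentile) of each measured member of 12 lineage and cell type lists; filled points are well above background on both arrays, open points on 1 array or neither, and the bar is the median of all measured members. The first 4 lists, of the oligodendrocyte lineage, have medians to the right of 0, and the mural and fibroblast list has the leftmost median.

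Markers of other cell types were read in the same way, because a culture from the cortex can hold other cells. Their part in the levels above was not tested. Of 21 astrocyte genes measured, 19 were well above background on both arrays, with a median percentile of 46.9 and levels from -3.55 to 7.34. Aldoc, a glycolytic enzyme enriched in astrocytes, was the brightest at 7.29 and 7.38. Slc1a3, the glutamate transporter GLAST that precursor cells also carry, had levels of 4.05 and 4.17. S100b, a calcium-binding protein found in astrocytes and in the oligodendrocyte lineage, had levels of 2.69 and 2.82. Gfap, the astrocyte intermediate filament, had levels of 0.56 and 0.42, and Aldh1l1, a folate enzyme used as an astrocyte marker, had -3.52 and -3.58; both were named after their values were seen. Gjb6, the connexin 30 gene, and Cbs were not well above background on either array.

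Microglia and macrophage genes were measured for 26 members, of which 16 were well above background on both arrays, 1 was on a single array and 9 were on neither. The median percentile of the 16 was 18.0. Cx3cr1, the fractalkine receptor, had levels of 0.91 and 1.03, and P2ry12, a purinergic receptor of resting microglia, had -0.13 and -0.01. Csf1r, the receptor on which microglia depend, was at -6.43 and -6.64, and C1qc, Cd74, Ptprc, Ctss and Mrc1 were likewise not well above background on either array. Cd68, a macrophage lysosomal protein, had levels of -0.66 and -0.18. Aif1, a microglial marker, had levels of -3.97 and -3.71 on the brighter of its probes. The complement genes C1qa, at -4.55 and -4.70, and C1qb, at -2.79 and -2.40, were also well above background on both arrays. These 3 genes were named after their values were seen. The list thus divided between 16 members above background on both arrays, mostly low in signal, and 9 on neither.

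Neuronal genes were well above background for 21 of 29 measured (72.4%, against 67.0% of all genes with a symbol), with a median percentile of 41.8. Gap43, a growth-cone protein that oligodendrocyte precursors in culture are known to carry, was the brightest at 4.41 and 4.45. Dcx, a microtubule protein of migrating young neurons, had levels of 3.26 and 3.15. Elavl3, a neuronal RNA-binding protein, had levels of 3.05 and 3.02, and Map2, a dendritic microtubule protein, had 2.70 and 2.88. The vesicular glutamate transporters Slc17a7 and Slc17a6, the vesicular GABA transporter Slc32a1, the cortical factors Neurod6 and Tbr1 and the kinase Camk2a were not well above background on either array. Gad1 and Gad2, which encode GABA-making enzymes, were well above background on both arrays, with mean levels of -0.97 and -3.84. The other Gad1 probe was on neither array, and both genes were named after their values were seen.

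Vascular, ependymal and Schwann cell lists were also read. Endothelial genes were well above background for 7 of 14, and 5 were on neither array. Pecam1, an endothelial adhesion molecule, Tie1, a receptor kinase, and Emcn were on neither. Cdh5, an endothelial cadherin named after its values were seen, was on both arrays at -3.06 and -3.24. Slc2a1, the GLUT1 glucose transporter that most cells carry, was the brightest endothelial member at 3.59 and 3.96. Mural and fibroblast genes were well above background for 8 of 17, with none above -1.72 in mean level. Pdgfrb, the PDGF receptor of pericytes, had levels of -6.01 and -5.64 and was among the 8 on neither array. Acta2, a smooth muscle actin, at -4.15 and -3.91, and Col1a1, a collagen chain, at -3.72 and -3.71 were on both. Acta2 and Col1a1 were named after their values were seen. Ependymal and choroid plexus genes were well above background for 7 of 11, led by Ttr, the transthyretin of choroid plexus, at 1.53 and 2.06. Schwann cell and neural crest genes were well above background for 7 of 10, and Pmp22, a peripheral myelin protein also found elsewhere, led at 1.63 and 1.76. Over all genes with a symbol the share was 67.0%, so a count near it sets no list apart.

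Stem and progenitor genes split widely. All 14 measured were well above background on both arrays, yet their median percentile was 22.4. Sox2 at 7.48 and 7.67, Fabp7, a brain lipid-binding protein of radial glia and precursors, at 5.59 and 5.90, and the receptor Notch1 at 4.04 and 4.18 lay high. Vim, an intermediate filament of immature glia, had levels of 1.81 and 1.77, and Nes, which encodes nestin, had 0.01 and -0.15. The lowest was Hes1, a Notch target, at -4.38 and -5.10, named after its values were seen.

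Regional patterning genes differed widely between families. Of 19 forebrain and neighbouring regional factors, 14 were well above background on both arrays. Emx2 had levels of 1.18 and 1.29 and Lhx2 had 0.87 and 1.13, both patterning factors of the dorsal forebrain. Pax3, of the dorsal neural tube, had levels of 0.74 and 0.78, and En2, of the midbrain and hindbrain, had 0.58 and 0.55. Of 25 Hox genes, which pattern the hindbrain and spinal cord, only Hoxc8 was well above background on both arrays, at -4.67 and -4.33. Of 1161 olfactory receptor genes, a family of sensory receptors of the nose, 75 (6.5%) were, and 72 of those 75 lay in the lowest 25% of signal. Over all genes with a symbol, 67.0% were well above background on both arrays.

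Receptors for growth signals ranged widely in signal. Of 33 mitogen and hormone receptors measured, 26 were well above background on both arrays, with a median percentile of 57.1. Thra, the thyroid hormone receptor alpha, was the brightest at 6.39 and 6.31. Fgfrl1, an FGF receptor that lacks the kinase, had levels of 5.69 and 5.62, and Ntrk2, the BDNF receptor TrkB, had 5.25 and 5.26. Ntrk3, the receptor for neurotrophin-3, had levels of 3.28 and 3.29, and Il6st, the shared receptor subunit gp130, had 3.02 and 3.15. Fgfr4, Osmr, Axl, Mertk and Esr1 were not well above background on either array, nor was Pdgfrb.

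Of 36 growth factor ligands and binding proteins measured, 24 were well above background on both arrays (66.7%, against 67.0% of all genes with a symbol). Pdgfa, the ligand of the PDGF receptor alpha, was the brightest at 5.39 and 5.40. Tgfa, a ligand of the EGF receptor, had levels of 4.24 and 4.45, while Egfr itself, named after its values were seen, had -4.25 and -3.59. Vegfa, the vascular growth factor, had levels of 3.52 and 3.59. Pdgfb, Pdgfd, Fgf5 and Fgf10 were not well above background on either array. The cultures thus carried RNA for both Pdgfa and its receptor, and each gene differed by about 0.01 between the arrays.

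Genes that the ERK pathway induces or that feed back on it were well above background for 20 of 27 measured. Ccnd1, the cyclin D1 gene, had levels of 4.31 and 4.33, and Myc, a growth-promoting factor, had 4.15 and 4.47. Etv5, an ETS factor downstream of FGF receptors, had levels of 3.36 on both arrays, and Dusp6, the phosphatase that inactivates ERK, had 3.02 and 3.25. The immediate early gene Jun had levels of 2.79 and 2.80. Dusp4, Fosb and Fosl1 were not well above background on either array.

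Proliferation genes were above background as groups. Of 33 S phase and replication genes, 32 were well above background on both arrays, with a median percentile of 72.0. Rrm2, a subunit of ribonucleotide reductase, had levels of 5.96 and 6.03, and Lig1, the replicative DNA ligase, had 4.83 and 4.78. Orc1 of the origin recognition complex was on neither array. All 34 G2/M genes measured were well above background, with a median percentile of 72.5. Cdk1, the mitotic kinase, had levels of 4.99 and 4.97, and Mki67, the Ki-67 proliferation antigen, had 4.05 and 4.10.

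Brakes on the cycle stood beside them. Cdkn1c, which encodes the CDK inhibitor p57, was the brightest of the 20 cyclin and inhibitor genes at 6.46 and 6.28. Cdk4, the partner of cyclin D, had levels of 4.71 and 4.65. Cdkn1a, the inhibitor p21, had levels of 3.38 and 3.42, and Ccne1, cyclin E1, had 3.26 and 3.36. All 20 were well above background on both arrays. Whether the inhibitors and the mitotic genes came from the same cells was not tested, since bulk RNA does not separate them.

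The extracellular matrix list was well above background for 24 of 26 measured. Bcan and Tnr led, with Dag1, the dystroglycan receptor for laminin, at 6.25 and 6.32. Vcan, the proteoglycan versican, had levels of 5.10 and 5.16, and Gpc1, a glypican, had 5.01 and 5.18. Hapln1 and Hapln4, link proteins that join lecticans to hyaluronan, were not well above background on either array.

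Membrane receptors and channels were mostly in the lower part of the range. G-protein-coupled receptors were well above background for 34 of 46 measured (73.9%, against 67.0% of all genes with a symbol). Gpr37l1 led at 5.68 and 5.79. Ednrb, the endothelin receptor B, had levels of 3.38 and 3.61, and Lpar1, a lysophosphatidic acid receptor of the lineage, had 1.76 and 2.08. Gpr17, the receptor of committed precursors, had levels of 0.93 and 0.63, the 52.6th percentile, and was named after its values were seen. Cxcr2, Cnr2, Chrm1, Chrm2 and Htr2a were not well above background on either array.

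Voltage-gated potassium channels were well above background for 22 of 39, inwardly rectifying channels for 7 of 15, two-pore channels for 8 of 13, sodium channel subunits for 7 of 13 and calcium channel subunits for 16 of 25. Kcna1, a delayed rectifier of the first family, had levels of 1.75 and 1.81. Cacna2d1, the alpha-2-delta subunit, led the calcium channels at 2.63 and 2.65. Scn2b, an auxiliary subunit, led the sodium channels at 1.65 and 1.89. No member of these 5 families lay in the top 25% of genes.

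Receptors for the transmitters glutamate and GABA are described by counts. AMPA, kainate and NMDA receptor subunits were well above background for 13 of 16. Grin2d, an NMDA receptor subunit, read 6.61 and 6.65 on 1 probe and -3.64 and -4.08 on the other. Grik5, a kainate receptor subunit, had levels of 4.85 and 4.96, and Gria3, an AMPA receptor subunit, had 4.04 and 4.26. Grik1, Grin2a and Grin2b were on neither array. GABA-A receptor subunits were well above background for 10 of 19, led by Gabrg1 at 1.65 and 1.73.

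Guidance and adhesion families followed. Semaphorins, plexins and neuropilins were well above background for 22 of 23, with a median percentile of 36.5, and Plxnb3, a plexin of oligodendrocytes, led at 3.71 and 3.41. Sema4d, a semaphorin of the lineage, had levels of 3.28 and 3.29. Ephs and ephrins were well above background for 16 of 18, with 10 of 16 in the lowest 25%. Integrins were for 9 of 18, led by Itgb1, the shared beta-1 subunit, at 5.25 and 5.39.

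Lipid synthesis genes were bright. All 24 cholesterol synthesis genes measured were well above background on both arrays, with a median percentile of 84.4 and 10 of 24 in the top 10%. Hmgcs1, the cytosolic HMG-CoA synthase, had levels of 8.17 and 8.34. Msmo1, the sterol C4-methyl oxidase, had levels of 7.10 and 7.14, and Cyp51, the lanosterol demethylase, had 6.32 and 6.36. Idi1, the isopentenyl diphosphate isomerase, had levels of 5.66 and 5.84. All 22 fatty acid and sphingolipid genes were also above background, with a median percentile of 65.1. Scd2, a fatty acid desaturase of brain, had levels of 7.02 and 7.15, and Acly, which makes cytosolic acetyl-CoA, had 6.13 and 6.28.

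Energy genes stood high, and stress genes were spread widely. Of 28 glycolysis and lactate genes, 27 were well above background, with a median percentile of 82.0. Ldha, a lactate dehydrogenase subunit, led at 8.30 and 8.38, followed by Aldoc. Pdk4, a kinase that restrains pyruvate dehydrogenase, was on neither array. Of 32 unfolded protein and stress genes, 31 were well above background. Hspa8, the constitutive HSC70 chaperone, had levels of 8.95 and 9.09, and Hspa5, the endoplasmic reticulum chaperone BiP, named after its values were seen, had 5.49 and 5.64.

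Genes of the small RNA pathway, through which microRNAs act, were measured for 16 members. All 16 were well above background on both arrays, with a median percentile of 74.0. Ago1, an Argonaute protein, had levels of 5.69 and 5.68. Drosha, the nuclear nuclease that cuts primary microRNAs, had levels of 5.55 and 5.60, and Xpo5, which exports microRNA precursors, had 4.82 and 4.86.

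The genes with the brightest probes were those of translation and the cytoskeleton. Of the 40 brightest, 27 were cytosolic ribosomal protein genes, 2 were tubulins, 1 belonged to the respiratory chain and ATP synthase, 1 was Hspa8 and 1 was Mbp. Rpl41 led at 9.52 and 9.62. Rn45s, the ribosomal RNA precursor, had levels of 9.36 and 9.45, and Rplp0, of the ribosomal stalk, had 9.30 and 9.37. Actg1, the gamma actin of non-muscle cells, had levels of 9.07 and 9.21, and Tuba1a, an alpha tubulin of young neural cells, had 9.06 and 9.15. Ubb, a polyubiquitin gene, had levels of 9.05 and 9.18, and Ftl1, the ferritin light chain, had a mean of 9.10. Ppia, the cyclophilin A gene, Pebp1, a Raf kinase inhibitor, and Rpl37l1, a ribosomal protein-like gene, were also among the 40 brightest and are in none of the lists.

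Probes of 1 gene often differed in signal. Among the 2506 genes with more than 1 probe above background on both arrays, the gap between the brightest and the dimmest had a median of 2.22, and 1362 genes (54.3%) had a gap over 2. Of the genes named above, Bcan, Mbp, Grin2d, Dag1, Gpc1, Cdkn1a, Ntrk2, Rrm2, Tgfa, Tppp, Vegfa and Rpl27a each had another probe above background that was more than 5 log2 units dimmer, so their place within a list holds for the brighter probe.

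All 77 cytosolic ribosomal protein genes were well above background on both arrays and all 77 lay in the top 10%, with a median percentile of 99.4. Of 80 respiratory chain and ATP synthase genes, 78 were well above background and 57 lay in the top 10%. Cox8c, a subunit restricted to testis, was on neither array. Of 38 proteasome genes 37 were, of 46 elongation and initiation factors 46 were, and of 17 tubulins 16 were. The exceptions were Psma8, a testis proteasome subunit, and Tubal3.

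**Figure D3:**
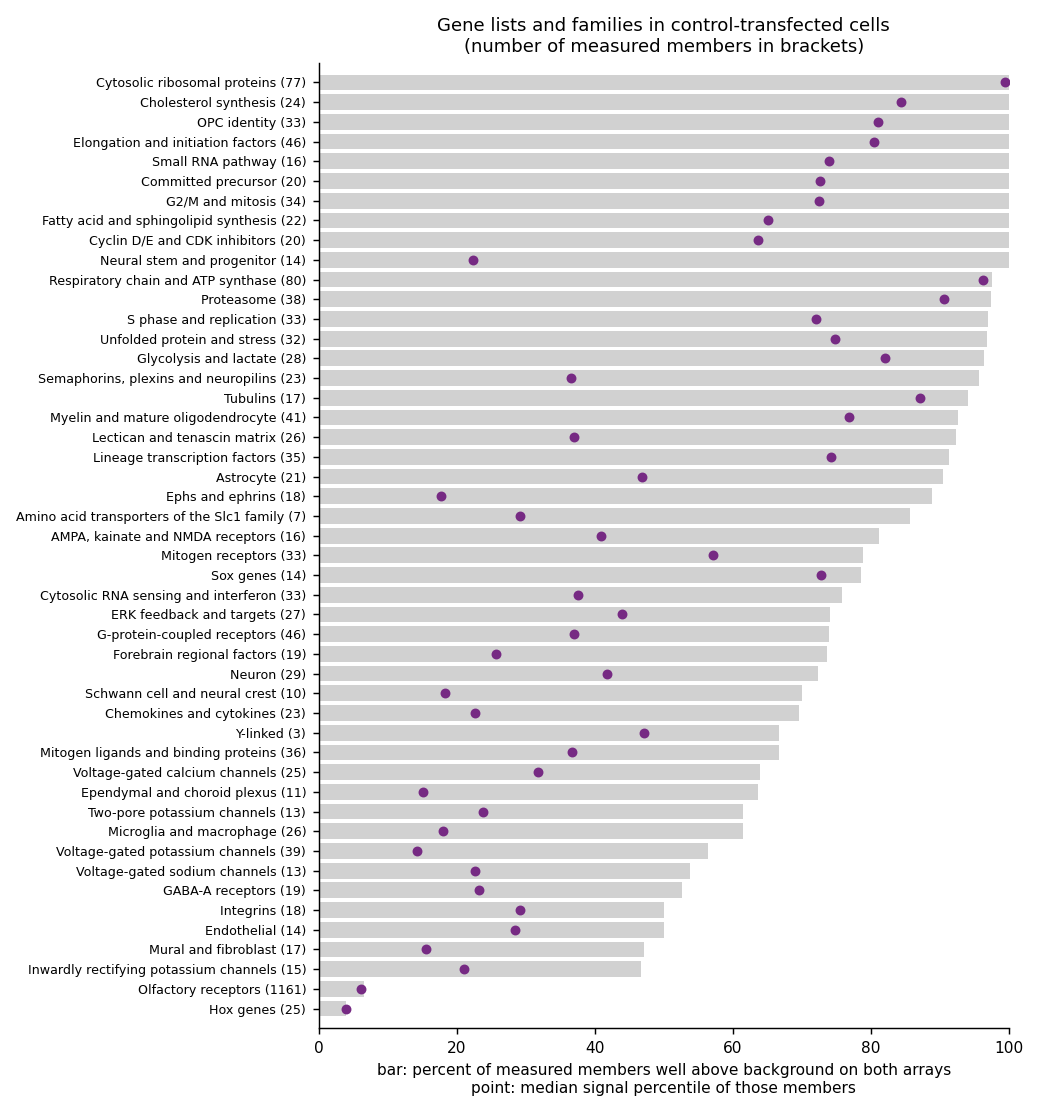
Percent of measured members well above background on both miR-neg arrays (grey bars, x axis in percent) and median signal percentile of those members (points, same axis) for 48 gene lists and families, with the number measured in brackets. The ribosomal protein genes stand at the top with a median percentile of 99.4, and olfactory receptors and Hox genes at the bottom with 6.5% and 4.0% of members above background.

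Long non-coding RNA genes were well above background on both arrays less often than protein-coding genes, at 24.8% against 68.3%. Gas5, the host of small nucleolar RNAs, was the brightest with a symbol other than a locus number, at 6.27 and 6.48, rank 257. Oip5-as1 had levels of 3.38 and 3.22. Both were named after their values were seen.

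Ribosomal protein genes are known for a pyrimidine-rich start site. Windows of 30 bases, 15 on each side of the annotated start, are printed for 6 of the 40 brightest genes, 3 with and 3 without CTTTC, to show the letters behind the count that follows. Capitals mark CTTTC on the coding strand, and the sequences are RefSeq, GRCr8, at chr12:13386139-13386168 (minus), chr1:172974558-172974587 (plus), chr3:43165907-43165936 (minus), chr7:1563483-1563512 (minus), chr12:46718376-46718405 (minus) and chr1:23500060-23500089 (plus).
Rpl21: ttcCTTTCcgccggggcagccatcttccag
Rpl27a: cgagacttggtgggctcctccctCTTTCtt
Rpl35: cgccccttcctCTTTCtctcgaaccgggcg
Rpl41: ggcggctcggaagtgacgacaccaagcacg
Rplp0: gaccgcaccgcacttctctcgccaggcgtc
Rps12: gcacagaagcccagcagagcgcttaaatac
Of the 61 ribosomal protein genes with a promoter in the table, 26 (42.6%) held CTTTC in this window, against 3.6% of all 27457 promoters. The share was 8.7% in the brightest 5% of detected genes, a group that includes ribosomal protein genes.

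Promoter composition varied with signal across all genes. In the 250 bases before the start, the median CpG ratio, observed over that given by the C and G content, was 0.28 for genes not well above background on either array once olfactory receptors were left out. It was 0.55, 0.72, 0.79 and 0.81 in successive groups of 25% of the detected genes from dim to bright. GGGCGG on either strand was present in 24.4% of the first set, and in 46.6%, 57.9%, 60.0% and 64.0% of the others. TATAAA on the coding strand, 40 to 16 bases before the start, was present in 3.8% of the first set and in 2.3%, 1.1%, 0.6% and 1.4% of the others. Of the 18 cholesterol synthesis genes with a promoter, 14 (77.8%) held CCAAT and 16 (88.9%) held GGGCGG on either strand. The shares were 34.3% and 32.4% of all promoters, and 39.3% and 64.0% in the brightest 25% of detected genes. These are descriptions of letters, with no test.

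**Figure D4:**
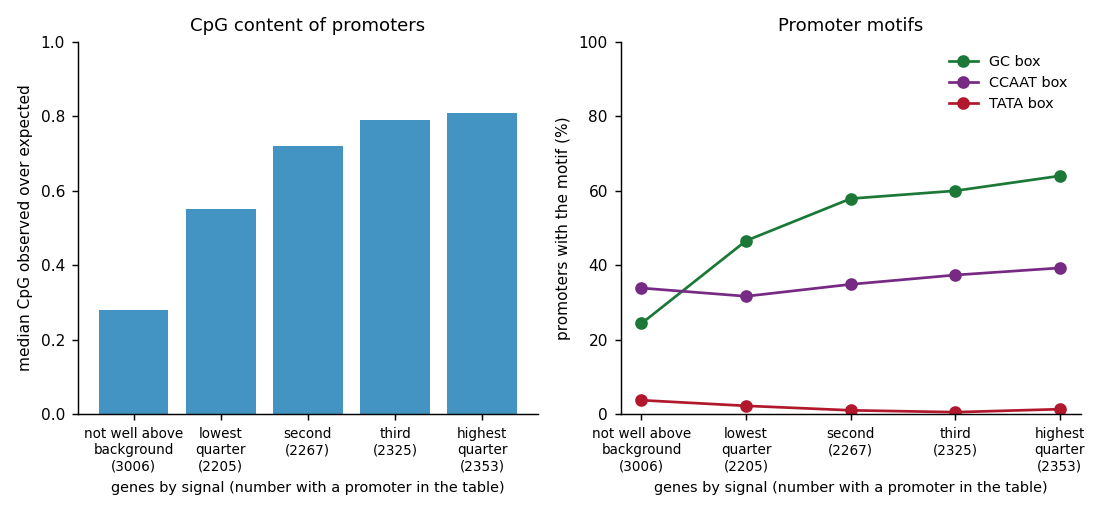
Left, median CpG ratio of the 250 bases before the start (y axis, observed over the ratio given by base content); right, percent of promoters holding GGGCGG (GC box), CCAAT or TATAAA (y axis, percent), for genes not well above background without olfactory receptors and for 4 equal groups of detected genes by signal, with the number of promoters in brackets. The CpG ratio runs from 0.28 to 0.81 and GC boxes from 24.4% to 64.0%.

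The 2 control samples differed little for most genes. Over the 11109 genes, the SD of the log2 difference was 0.223 and 96.9% lay within 0.5. It fell from 0.366 in the dimmest 20% of genes to 0.107 in the brightest 20%. Pearson's r over genes was 0.997, and genes are not independent replicates. In 47 genes the arrays differed by more than 1, with 10 higher in replicate 2 and 37 higher in replicate 1.

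The 20 genes with the largest differences, 10 in each direction, all lay in the lower part of the range, at or below the 26.8th percentile. Gpat2, a mitochondrial acyltransferase, had levels of -4.92 and -1.67. B630019K06Rikl had levels of -4.51 and -2.15, and Fam210b had -3.73 and -1.45. The 20 include LOC102550095, at -4.32 and -2.94, and LOC102553541, at -2.61 and -4.42, which have only locus numbers for symbols. Tbc1d10c, a Rab GTPase-activating protein, had levels of -1.35 and -4.24, and Smtnl1, a smooth muscle protein, had -2.48 and -4.80. Nqo1, an NAD(P)H quinone reductase of the NRF2 response, had levels of -1.56 and -3.34, and Csn1s1, an alpha-casein gene, had -0.77 and -2.69.

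Interferon-responsive and RNA-sensing genes differed between the samples as a list. Of 33 measured, 25 were well above background on both arrays, and 23 of those 25 were higher in replicate 2, with a median difference of 0.28, against 55.7% of all genes higher and a median of 0.022 over them. That median was between 0.22 and 0.34 under the alternatives tried. Microglia and macrophage genes were higher in replicate 2 for 11 of 16, with a median difference of 0.12. Ependymal and choroid plexus genes were higher for 6 of 7, with a median of 0.22, and endothelial genes for 4 of 7, with a median of 0.20. The part of these cell types in the interferon difference was not tested. Irf7, a master factor of the interferon response, had levels of -2.95 and -1.90. Mx2, an interferon-induced GTPase, had levels of 5.61 and 5.93, and B2m, the MHC class I light chain, had 4.61 and 4.80. Irf3, a latent sensor-activated factor, had levels of 3.14 and 3.41. Isg15, an interferon-induced ubiquitin-like protein, had levels of -0.19 and 0.50 and was named after its values were seen. Tlr7, Oas3, Oasl, Ifit1 and Ifit3 were not well above background on either array. With 1 sample on each side this difference has no test, and both samples had the same treatment label.

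Differences in the other lists are read against the same background. Over all genes 55.7% were higher in replicate 2, and the median difference went from -0.033 in the dimmest 20% of genes to 0.061 in the brightest 20%. Ribosomal protein genes were higher in replicate 2 for 75 of 77, with a median difference of 0.15, which became 0.01 with quantile normalization. Committed precursor genes were higher in replicate 2 for 6 of 20, with a median of -0.10, and myelin genes for 19 of 38, with a median of 0.00. OPC identity genes were higher in replicate 2 for 25 of 33, with a median of 0.06. Chemokine and cytokine genes were well above background for 16 of 23, and Il1b, Il6 and Tnf were on neither array.

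**Figure D5:**
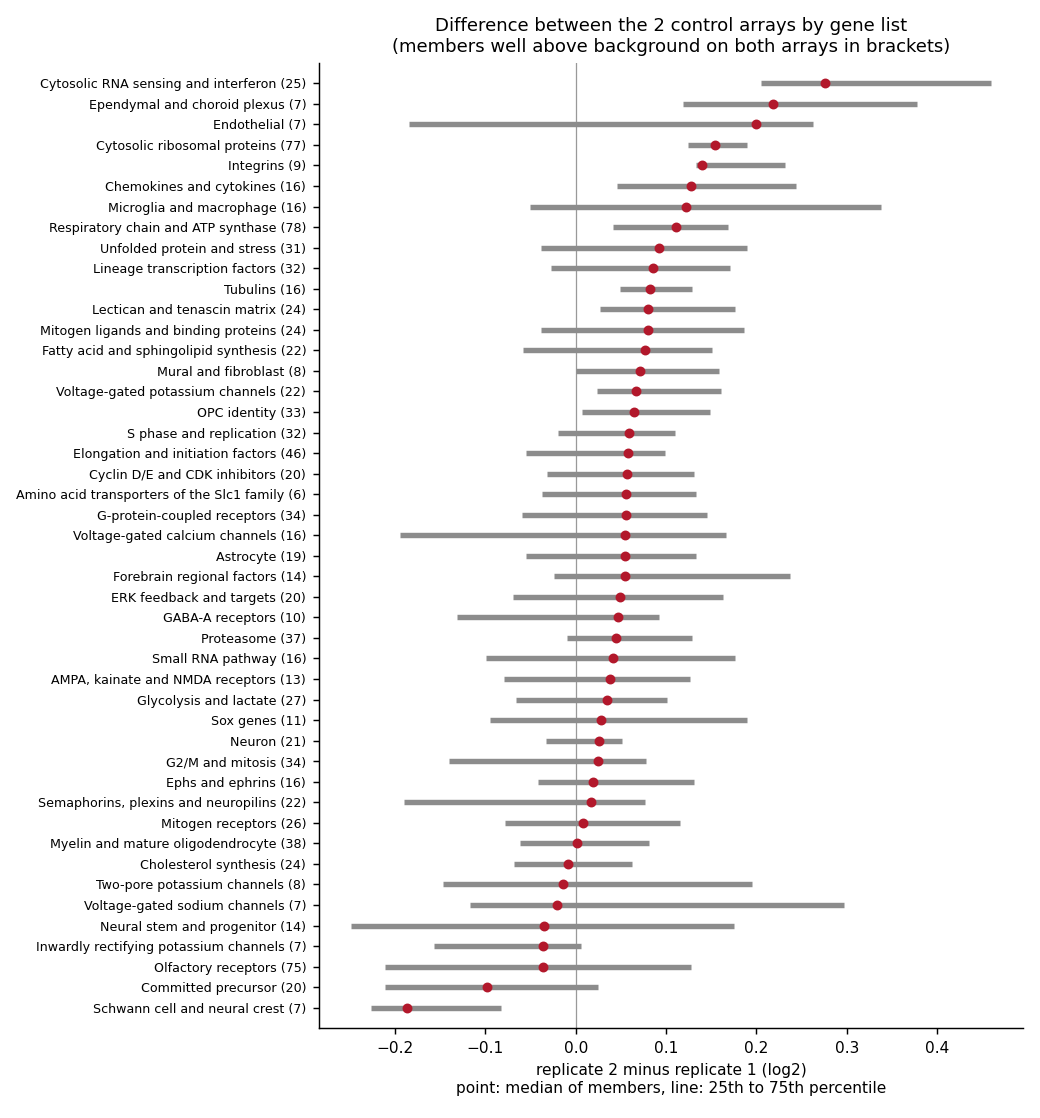
Median difference between the arrays (point) with the 25th to 75th percentile of members (line) for the gene lists with more than 2 members above background (Hox and Y-linked genes are not drawn), as replicate 2 minus replicate 1 on the log2 scale (x axis), with the number of members in brackets. The RNA sensing and interferon list lies farthest to the right at 0.28 and the Schwann cell list farthest to the left at -0.19.

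The Y-linked genes Eif2s3y, at 0.88 and 1.27, and Ddx3y, at -0.61 and -0.43, were well above background on both arrays, and Uty was on neither. Both samples thus carried RNA from Y-linked genes, and the labels give no sex.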

How the data were processed

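The arrays of miR-neg replicates 1 and 2 were read from the deposited scanner files. The submitters' processing notes name Agilent Feature Extraction 10.7.3.1. The deposited processed signal is a background-subtracted intensity on a linear scale, per the file headers, and the deposited well-above-background flags are yes or no calls. The authors' deposited log2 table equalled the log2 signal minus a constant within 0.01 for 100% of probes. Control spots and outlier spots were left out, spots of a probe were averaged, a probe counted as well above background where more than 50% of its spots did, and each array was centred on its 75th percentile. Names were matched by accession to RefSeq GRCr8; 21101 of 45598 probes were paired with a symbol, and the array header's own build, rn4, was not used for coordinates. Python 3.11.15, pandas 2.3.3 and limma 3.58.1 (in R 4.3.3) were used; limma served only for the normexp alternative. No test across samples was made, since 1 group of 2 arrays allows none. Array number limits the precision. The scripts were tested on simulated data.

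Members and the 29 lists and 19 families were chosen with earlier results of these data known, and family patterns were corrected after gene names were seen. Named genes are the 4 markers, the 40 brightest, up to 6 bright and 6 undetected members of a list, and the 10 most different between arrays in each direction; any other gene was named after its values were seen. Lists overlap, and members with no probe paired with a symbol were not measured here. Some members are not reported here.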

Additional observations from a re-analysis of the deposited data

How the results depend on the processing

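Counts of probes and genes above background, and most list counts, stayed within 1.5 times of the values above. With the looser flag for signal above background on both arrays, Hox genes counted 13, olfactory receptors 321, integrins 16, and inwardly rectifying potassium, voltage-gated potassium and voltage-gated sodium channels 11, 34 and 12. On at least 1 array, Hox genes counted 2 and olfactory receptors 145; leaving out one replicate gave 2 Hox genes at most and 101 to 119 olfactory receptors. Two-pore potassium channels counted 5 when every probe of a gene had to pass, an alternative chosen after seeing the data. The SD of the difference over probes, 0.248, was 0.16 with normexp and 0.56 on all non-control probes. Taking the dimmest probe of a gene, detected or not, moved the percentile of 63 of 295 named genes by more than 10. The mean of detected probes moved 34, and normexp moved none. For the list medians, the dimmest probe shifted the percentile by at most -23.7 (mitogen receptors) and by more than 10 in 5 of 48 lists, and the level by at most -3.14. The planned normexp on mean signals was not run, because the files used here hold no such column; median signals were used, chosen after seeing the data. No paired analysis was possible because the 2 samples form 1 group and no result comes from a test.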

Other observations

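Several genes outside the lists and below the 40 brightest also stood high, and all of those that follow were chosen after their values were seen. Dbi, the acyl-CoA-binding protein also known as diazepam binding inhibitor, ranked 51 with levels of 8.35 and 8.56, and both of its probes were bright, the dimmer at a mean of 8.16. Fabp5, a fatty acid-binding protein, ranked 69 with levels of 8.22 and 8.36, and its dimmer probe had a mean of 7.68. Tkt, the transketolase of the pentose phosphate pathway, ranked 58 with levels of 8.38 and 8.42. Ceacam9, a carcinoembryonic antigen family gene, ranked 62 with levels of 8.34 and 8.42 on its only probe. Apod, a secreted lipocalin of glia, had levels of 4.20 and 4.31.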
